A study of Mus musculus with 37 samples.

Results

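The 38 Hox cluster genes of the count table are the subject here: 11 Hoxa, 10 Hoxb, 9 Hoxc and 8 Hoxd genes among 39017 genes in all, chosen by symbol alone, as every row named Hoxa, Hoxb, Hoxc or Hoxd followed only by a number. RNA came from whole subcutaneous tumours taken 3 weeks after mouse pancreatic tumour cells were implanted into untreated C57BL/6 mice, so each library holds RNA of the implanted clone and of host cells. A clone is named by a number and a second number after the letter c, and clones such as bulk_6419c1 and bulk_6419c5 share the first number; the sources used here do not say what it stands for. Plots leave out the prefix bulk_. The values below come from tumours numbered 2 or later: 8 tumours of 7 T cell high clones (bulk_2838c3, bulk_6421c2, bulk_6499c4, bulk_6555c3, bulk_6556c4, bulk_6620c1, bulk_7160c2), 2 tumours of 2 T cell intermediate clones (bulk_6422c5, bulk_7160c5) and 8 tumours of 6 T cell low clones (bulk_2669c4, bulk_6419c1, bulk_6419c5, bulk_6499c3, bulk_6556c3, bulk_6694c2). All of them share the host strain, the implantation site and the time. Of the 15 clones, bulk_2669c4 had 3 such tumours, bulk_2838c3 had 2 and the other 13 had 1 each, so a value of most clones is a value of 1 tumour.

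Hox genes encode homeodomain transcription factors and lie in 4 clusters, in which the order of the genes follows the order of their domains along the body axis of the embryo. Low numbers are used anteriorly and early, high numbers posteriorly and late, and genes of equal number in different clusters are paralogues. Adult cells keep part of the pattern: fibroblasts of different body sites carry different Hox genes, and endoderm-derived epithelia carry those of their position along the gut. In the embryo, Polycomb proteins hold the clusters silent, Trithorax proteins and retinoic acid oppose this, and the Pbx and Meis proteins bind DNA together with Hox proteins. In bulk tissue, fewer cells of a type and less RNA per cell cannot be told apart.

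The Hoxa cluster lay on the minus strand of chromosome 6 (GRCm38), the Hoxb cluster on the plus strand of chromosome 11 (96194316 to 96368256), the Hoxc cluster on the plus strand of chromosome 15 (102921103 to 103036852) and the Hoxd cluster on the plus strand of chromosome 2 (74668310 to 74765142). Many of these genes overlap each other or an antisense transcript in the GENCODE annotation: Hoxa3 spans Hoxa4 to Hoxa6, and Hoxc5 spans several neighbours. Among those with antisense partners are Hoxa3 to Hoxa7, Hoxa11, Hoxb2, Hoxb3, Hoxb5, Hoxb6, Hoxd3 and Hoxd8. The sources used here do not say whether reads were counted by strand, which makes values of those genes uncertain.

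RefSeq promoter windows (GRCm38.p6) were matched for 21 of the 38 genes, with 23 starts. The 250 bases before the start are printed below for 5 genes on which the results turn: Hoxa10, with its 2 starts, Hoxa11 and Hoxa13, the 3 posterior genes that were high in 1 clone, and Hoxb4 and Hoxd8, which were detected in every clone. Capitals mark CG dinucleotides, the sites of DNA methylation, and each run reads 5′ to 3′ on the gene's strand.

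Hoxd8 (chr2:74704365-74704614, plus strand): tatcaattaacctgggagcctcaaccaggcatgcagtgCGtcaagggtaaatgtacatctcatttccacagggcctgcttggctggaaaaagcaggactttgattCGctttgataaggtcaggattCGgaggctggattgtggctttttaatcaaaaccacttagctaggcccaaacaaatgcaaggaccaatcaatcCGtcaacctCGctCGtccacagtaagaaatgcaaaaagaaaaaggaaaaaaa
Hoxa10 (chr6:52234940-52235189, minus strand): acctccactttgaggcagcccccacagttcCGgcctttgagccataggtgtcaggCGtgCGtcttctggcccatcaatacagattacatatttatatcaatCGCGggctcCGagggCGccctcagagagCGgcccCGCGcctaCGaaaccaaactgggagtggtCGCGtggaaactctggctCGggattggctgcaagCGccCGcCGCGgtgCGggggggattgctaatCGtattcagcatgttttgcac
Hoxa10 (chr6:52240855-52241104, minus strand): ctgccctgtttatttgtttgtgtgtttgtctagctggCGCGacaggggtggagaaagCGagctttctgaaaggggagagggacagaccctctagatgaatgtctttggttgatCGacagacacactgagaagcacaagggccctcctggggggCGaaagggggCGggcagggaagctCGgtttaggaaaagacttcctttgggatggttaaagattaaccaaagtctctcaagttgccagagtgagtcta
Hoxa11 (chr6:52245811-52246060, minus strand): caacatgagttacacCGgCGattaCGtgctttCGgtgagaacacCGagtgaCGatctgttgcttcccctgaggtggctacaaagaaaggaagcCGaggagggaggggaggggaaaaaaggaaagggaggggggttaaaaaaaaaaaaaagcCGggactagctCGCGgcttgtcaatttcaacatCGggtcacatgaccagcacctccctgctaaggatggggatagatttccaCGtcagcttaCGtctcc
Hoxa13 (chr6:52260881-52261130, minus strand): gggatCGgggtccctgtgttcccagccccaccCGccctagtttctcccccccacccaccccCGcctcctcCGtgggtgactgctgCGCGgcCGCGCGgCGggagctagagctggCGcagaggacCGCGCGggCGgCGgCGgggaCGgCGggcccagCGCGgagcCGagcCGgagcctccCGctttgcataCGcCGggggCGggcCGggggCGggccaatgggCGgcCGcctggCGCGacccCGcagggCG
Hoxb4 (chr11:96318017-96318266, plus strand): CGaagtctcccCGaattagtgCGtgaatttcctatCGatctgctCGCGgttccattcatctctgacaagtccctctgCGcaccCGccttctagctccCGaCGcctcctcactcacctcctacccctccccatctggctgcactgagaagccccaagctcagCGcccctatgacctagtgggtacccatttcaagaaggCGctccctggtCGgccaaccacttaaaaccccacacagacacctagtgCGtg

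The number of CG sites in the window was 35 for Hoxa13, 13 for Hoxa11, 7 and 20 for the 2 starts of Hoxa10, 14 for Hoxb4 and 6 for Hoxd8. Over the 23 Hox windows the median was 13, with a range of 2 to 35, against a median of 6 over 32851 windows of all genes. Both strands were searched for 3 motifs: TGATNNAT, a composite of Pbx and Hox binding, TTTATG, the core of caudal binding, and the direct-repeat retinoic acid response element. They occurred in 4, 4 and 0 of the 23 Hox windows, against 7.68%, 10.8% and 0.00913% of all windows, and in none of the 6 windows printed. A match is a description of letters and not a site in use.

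Levels are given as counts scaled to library size by TMM (CPM), and 1 CPM was taken as detected. Across the 15 clones, 24 of the 38 genes reached 1 CPM in at least 1 clone, and 4 did so in all: Hoxb4, Hoxc6, Hoxc8 and Hoxd8. The number detected per clone had a median of 14 and ran from 4 in bulk_2669c4 to 20 in bulk_6419c5 and in bulk_6620c1. Later tumours of 1 clone were pooled for this. Taken alone, tumours 2, 3 and 4 of bulk_2669c4 had 8, 8 and 4 genes at 1 CPM. Tumours 2 and 3 of bulk_2838c3 had 8 and 12. The 24 genes were Hoxa3 and the genes from Hoxa5 to Hoxa13, the Hoxb genes from Hoxb2 to Hoxb8, the Hoxc genes from Hoxc4 to Hoxc10, and Hoxd3, Hoxd8 and Hoxd9. The Hoxb and Hoxd genes detected left out both ends of their clusters, and the Hoxc genes the posterior end. The other 14 genes, which include Hoxb1 and Hoxd1 at the anterior end and Hoxb13, Hoxc11 to Hoxc13 and Hoxd10 to Hoxd13 at the posterior end, stayed under 1 CPM in every clone. Hoxd12 had 0 counts in all 18 later tumours, and Hoxc12 and Hoxd11 had 1 count each in all.

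The number detected per clone ran from 0 to 8 for Hoxa genes, 1 to 7 for Hoxb, 2 to 6 for Hoxc and 1 to 3 for Hoxd. Among T cell high clones, bulk_6620c1 had 4 Hoxa, 7 Hoxb, 6 Hoxc and 3 Hoxd genes at 1 CPM, bulk_6555c3 had 3, 7, 5 and 3, bulk_6499c4 had 4, 5, 6 and 3, and bulk_6556c4 had 3, 4, 4 and 3, in the same order of clusters. Fewer were detected in bulk_2838c3 (2, 3, 4 and 2), in bulk_6421c2 (0, 3, 3 and 2) and in bulk_7160c2 (1, 1, 4 and 1). Of the T cell intermediate clones, bulk_7160c5 had 3, 6, 6 and 3 and bulk_6422c5 had 2, 3, 4 and 1. Among T cell low clones, bulk_6419c5 had 8, 6, 4 and 2, bulk_6419c1 had 4, 3, 6 and 3, and bulk_6499c3 had 4, 5, 5 and 2. The others were bulk_6694c2 with 0, 2, 6 and 2, bulk_6556c3 with 0, 4, 3 and 1, and bulk_2669c4 with 0, 1, 2 and 1. No Hoxa gene was detected in bulk_6421c2, bulk_6694c2, bulk_6556c3 and bulk_2669c4, where Hoxa genes still summed to 4.37, 4.955, 3.73 and 3.59 CPM. The Hoxa sum was 5.05 CPM in bulk_7160c2, with 1 Hoxa gene detected. The lack of a single Hoxa gene at 1 CPM thus occurred in both T cell high and T cell low clones. In bulk_2669c4 this holds for the pooled tumours: tumour 3 alone had Hoxa3 and Hoxa5 at 1 CPM, and tumours 2 and 4 had no Hoxa gene. At number 9, Hoxc9 was detected in 14 clones, Hoxd9 in 7, Hoxa9 in 5 and Hoxb9 in none.

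**Figure D1:**
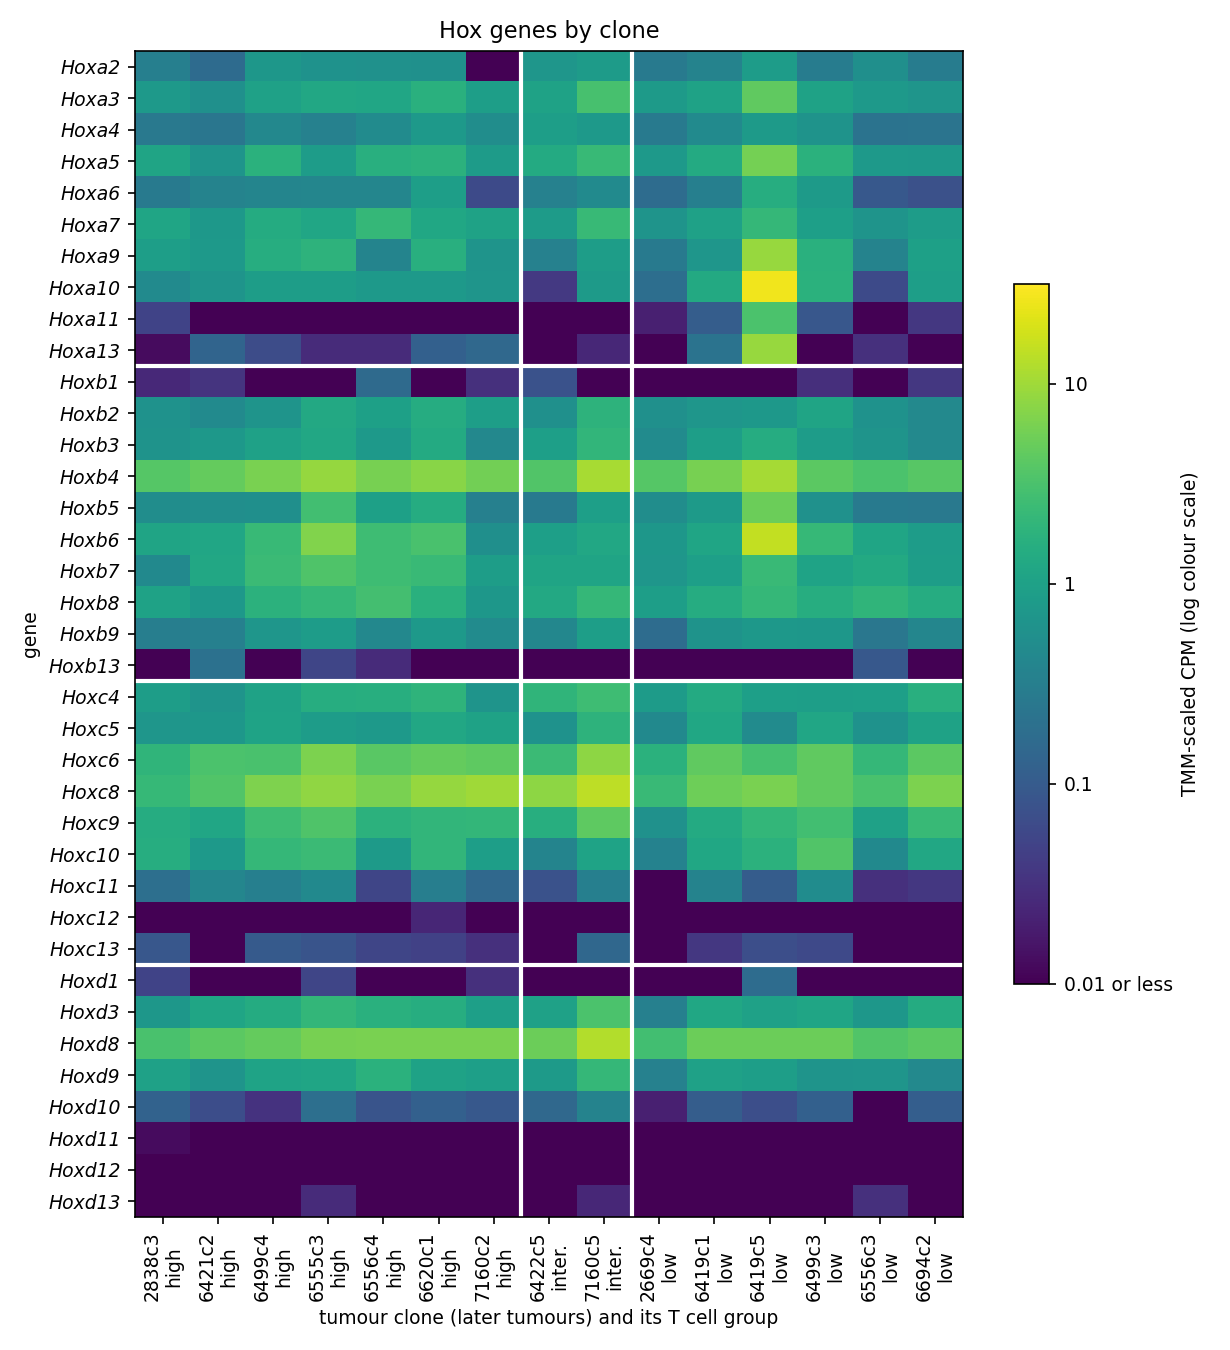
Level of 37 of the 38 Hox genes (rows, in cluster order) in the later tumours of 15 clones (columns, grouped as T cell high, intermediate and low), in TMM-scaled CPM on a log colour scale. Hoxb4, Hoxc6, Hoxc8 and Hoxd8 are bright in every column, and Hoxa11 and Hoxa13 are bright in bulk_6419c5 alone.

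Scaled to exonic length as well as library size (RPKM), the level was highest for Hoxb4, with a mean of 2.31 RPKM over clones, and for Hoxc8, with 2.26 RPKM. Hoxd8 followed with 1.96 RPKM and Hoxc6 with 1.61 RPKM, and Hoxa5 led the Hoxa cluster with 0.831 RPKM. Hoxb4 is also known from blood stem cells, and Hoxc6 and Hoxc8 pattern the thoracic region. Hoxb4 ranged from 3.18 CPM in bulk_6556c3 to 10.97 CPM in bulk_7160c5, Hoxc6 from 1.71 CPM in bulk_2669c4 to 8.15 CPM in bulk_7160c5, Hoxc8 from 2.18 CPM in bulk_2838c3 to 14.2 CPM in bulk_7160c5, and Hoxd8 from 2.72 CPM in bulk_2669c4 to 12.5 CPM in bulk_7160c5. By group, Hoxc8 had a lowest, median and highest of 2.18, 6.76 and 9.98 CPM in T cell high clones, 8.07 and 14.2 CPM in the 2 intermediate clones, and 2.38, 4.89 and 6.47 CPM in low clones, so high and low clones overlapped. Hoxb4 had 3.80, 5.99 and 8.85 CPM in high clones, 3.59 and 10.97 CPM in intermediate clones, and 3.18, 4.04 and 10.6 CPM in low clones, and overlapped likewise. The widest ranges on a log2 CPM scale (prior count 2) belonged to Hoxa10 in the Hoxa cluster, at 8.24, and to Hoxb6 in the Hoxb cluster, at 4.67. In the Hoxc cluster the widest was that of Hoxc11, at 3.20, and in the Hoxd cluster that of Hoxd10, at 3.08, although Hoxc11 stayed at or under 0.502 CPM and Hoxd10 at or under 0.372 CPM.

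Paralogues of 1 number did not share a level. At number 8, Hoxc8 had a mean of 2.26 RPKM and Hoxd8 1.96 RPKM, against 0.602 RPKM for Hoxb8. At number 9, Hoxc9 had 0.834 RPKM, Hoxd9 0.455 RPKM, Hoxa9 0.261 RPKM and Hoxb9 0.211 RPKM. At number 13, the mean of Hoxa13 over clones, 0.269 RPKM, came from 1 clone: its median was 0.0109 RPKM. No Hoxb13 level passed 0.202 CPM, no Hoxc13 level 0.149 CPM and no Hoxd13 level 0.0308 CPM.

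The clusters kept similar shares of the Hox total in 14 of the 15 clones. Outside bulk_6419c5, Hoxc genes held 29.9% to 45.8% of the summed Hox CPM, Hoxb genes 23.6% to 40.3%, Hoxd genes 13.9% to 21.7% and Hoxa genes 11.2% to 19.9%. In bulk_6419c5, Hoxa genes held 51.6%, Hoxb genes 30.9%, Hoxc genes 11.7% and Hoxd genes 5.85%. The summed Hox level was lowest in bulk_2669c4, at 21.2 CPM, had a median of 43.0 CPM and was highest in bulk_6419c5, at 124.3 CPM, followed by bulk_7160c5, at 84.2 CPM. The summed level of 10 fibroblast markers moved with part of this: it was lowest in bulk_2669c4, at 5973 CPM, and highest in bulk_7160c5, at 30530 CPM, but bulk_6419c5, at 10770 CPM, was under the median of 12680 CPM. None of the 10 markers was at 0. Their part in the Hox levels was not tested. The marker sum ran from 6302 to 18940 CPM in T cell high clones, from 14140 to 30530 CPM in T cell intermediate clones and from 5973 to 17560 CPM in T cell low clones.

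Total counts of the later tumours ran from 26.47 to 44.36 M. Duct markers, such as Krt19 and Epcam, summed to 4979 to 11200 CPM over the 9 genes listed, with none at 0. The summed level of 5 liver and heart genes was 581 to 12980 CPM in the 16 tumours numbered 1 and 6398 CPM in bulk_2669c4 tumour 2, against 0.0653 to 125.8 CPM in the other 17 later tumours. Tumours numbered 1 are therefore used here only where named. Nothing in the labels says whether tumours of 1 clone grew in separate mice, so p-values measure the spread between these samples, which may be technical.

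Clone bulk_6419c5 stood apart in the posterior Hoxa genes. Hoxa10, which patterns the limb and the reproductive tract, was at 26.6 CPM in bulk_6419c5 (765 counts, exact Poisson 95% interval 24.8 to 28.6 CPM, counting error only), against a median of 0.769 CPM and a highest of 1.71 CPM (bulk_6499c3) in the other 14 clones. Hoxa13, a gene of the digits and the hindgut, was at 9.16 CPM (263 counts), against a highest of 0.218 CPM (bulk_6419c1, 6 counts) in the others. Hoxa11, needed for the forearm and the kidney, was at 3.20 CPM (92 counts), against a highest of 0.109 CPM (bulk_6419c1, 3 counts) and 0 counts in 9 clones. Hoxa9, a gene of blood progenitors and the trunk, was at 8.98 CPM, against a highest of 1.82 CPM (bulk_6555c3). The profile was not purely posterior: Hoxa3 was at 4.42 CPM against a highest of 3.02 CPM (bulk_7160c5), and Hoxa5 at 5.88 CPM against a highest of 2.28 CPM (bulk_7160c5). Hoxa4 and Hoxa7 were inside the range of the other clones, at 0.801 and 2.16 CPM. Of the 38 genes, 11 had their highest level of the 15 clones in bulk_6419c5, 16 in bulk_7160c5 and at most 2 in any other clone. The 11 are 8 Hoxa genes, Hoxb5, Hoxb6 and Hoxd1; no Hoxc gene is among them, and Hoxd1 had only 0.174 CPM.

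**Figure D2:**
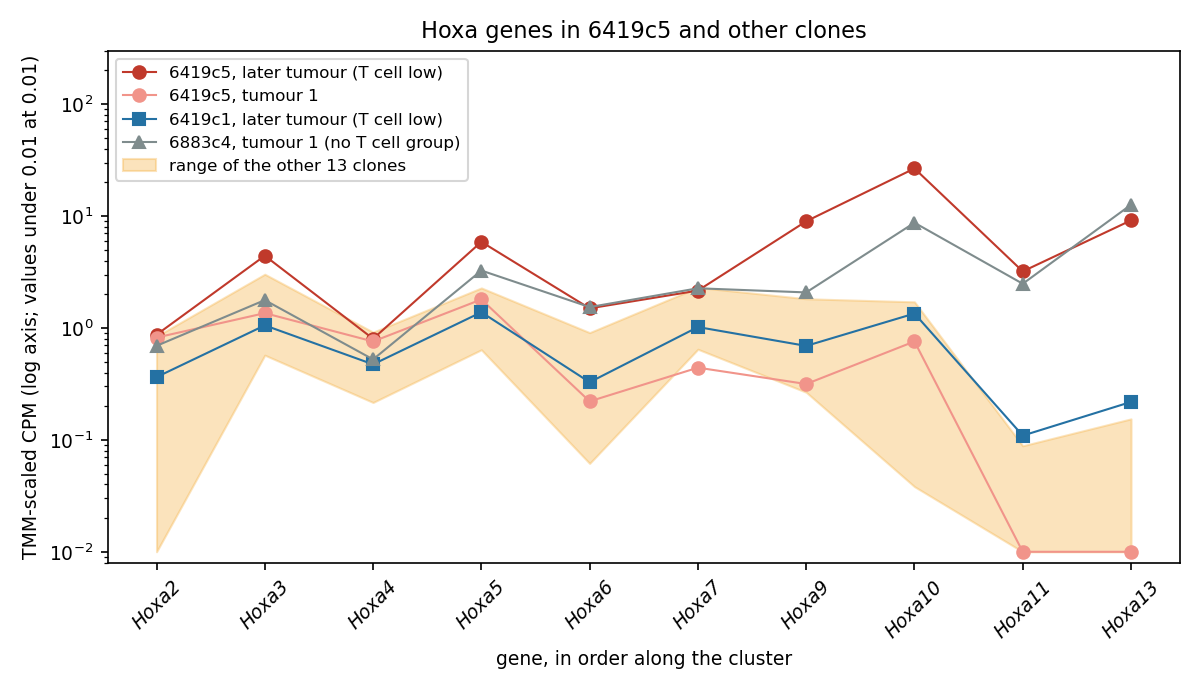
Level of 10 of the 11 Hoxa genes (x axis, in order along the cluster) in TMM-scaled CPM (log axis, values under 0.01 drawn at 0.01) in bulk_6419c5, in bulk_6419c1, in 1 tumour of the ungrouped clone bulk_6883c4 and as the range over the other 13 clones. The later tumour of bulk_6419c5 lies above the band at Hoxa9 to Hoxa13, reaching 26.6 CPM at Hoxa10, while its tumour 1 has 0 counts of Hoxa11 and Hoxa13.

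The posterior Hoxa genes of bulk_6419c5 rest on 1 tumour. The sum of Hoxa10 to Hoxa13 was 38.98 CPM in its later tumour, against 0.758 CPM in its tumour 1, where Hoxa10 had 24 counts and Hoxa11 and Hoxa13 had 0. The later tumour had 4.87 CPM of the 5 liver and heart genes. The 16 tumours numbered 1 had 0.132 to 1.41 CPM of the Hoxa10 to Hoxa13 sum. The antisense transcript Hoxa11os was at 2.23 CPM in the later tumour of bulk_6419c5 and at most 0.0364 CPM (bulk_6419c1) in the other clones, and reads of it and of Hoxa11 cannot be told apart if strand was not used. Without bulk_6419c5, 21 genes in place of 24 reached 1 CPM in some clone, and Hoxa6, Hoxa11 and Hoxa13 were the 3 lost. Skeletal muscle markers, a possible neighbour tissue, summed to 26.3 CPM in that tumour, as in bulk_6556c4 (26.6 CPM), and their part in the Hox levels was not tested.

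A second tumour showed the same genes. The tumour of clone bulk_6883c4, which has no T cell group and is numbered 1, had 12.6 CPM of Hoxa13 (747 counts), 8.72 CPM of Hoxa10 (516 counts) and 2.48 CPM of Hoxa11 (147 counts). In it Hoxa13 was above Hoxa10, the reverse of bulk_6419c5. The tumour of bulk_6883c1, which shares its clone number, had a Hoxa10 to Hoxa13 sum of 0.564 CPM, against 23.8 CPM in bulk_6883c4.

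Hoxb genes of bulk_6419c5 were high at 2 neighbours, Hoxb5 and Hoxb6. Both overlap the antisense transcript Hoxb5os, whose reads may not be told apart from theirs if strand was not used. Hoxb6 was at 15.3 CPM (439 counts), against a highest of 6.87 CPM (bulk_6555c3) in the other clones, and Hoxb5 at 5.15 CPM, against a highest of 2.74 CPM (bulk_6555c3). The median of the other 14 clones was 1.16 CPM for Hoxb6 and 0.546 CPM for Hoxb5. Hoxb2, Hoxb8 and Hoxb9 were within the range of the others, at 0.731, 2.12 and 0.731 CPM. Clone bulk_6555c3 had the highest Hoxb7 (3.46 CPM) and the second highest Hoxb5 and Hoxb6.

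Hoxc10, the most posterior Hoxc gene detected and known from the hindlimb, differed between tumours of 1 clone. In bulk_2838c3 it was at 0.109 CPM (4 counts) in tumour 2 and at 2.70 CPM (116 counts) in tumour 3. In bulk_2669c4 it was at 1.11 CPM (33 counts) in tumour 2, at 0 counts in tumour 3 and at 0.0475 CPM (2 counts) in tumour 4. Hoxc8, 2 positions away, changed less: of the counts of both genes, Hoxc10 took 4.55% in bulk_2838c3 tumour 2 (95% Clopper-Pearson interval 1.25% to 11.2%) and 56.3% in tumour 3 (49.2% to 63.2%). In bulk_2669c4 the shares were 36.7% (26.8% to 47.5%), 0% (0 of 83 counts, up to 4.35%) and 2.13% (0.259% to 7.47%). The highest share elsewhere was 44.7% in bulk_6499c3 (38.6% to 50.8%), and bulk_6422c5 had 4.52%. The intervals cover counting error only. Hoxa9 and Hoxa10 were likewise lower in tumours 3 and 4 of bulk_2669c4, where Hoxa10 had 18 counts in tumour 2 and 0 in tumours 3 and 4. Tumour 2 of bulk_2669c4 is the one with liver and heart transcripts, whose part was not tested; tumours 2 and 3 of bulk_2838c3 had 11.1 and 4.90 CPM of those.

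**Figure D3:**
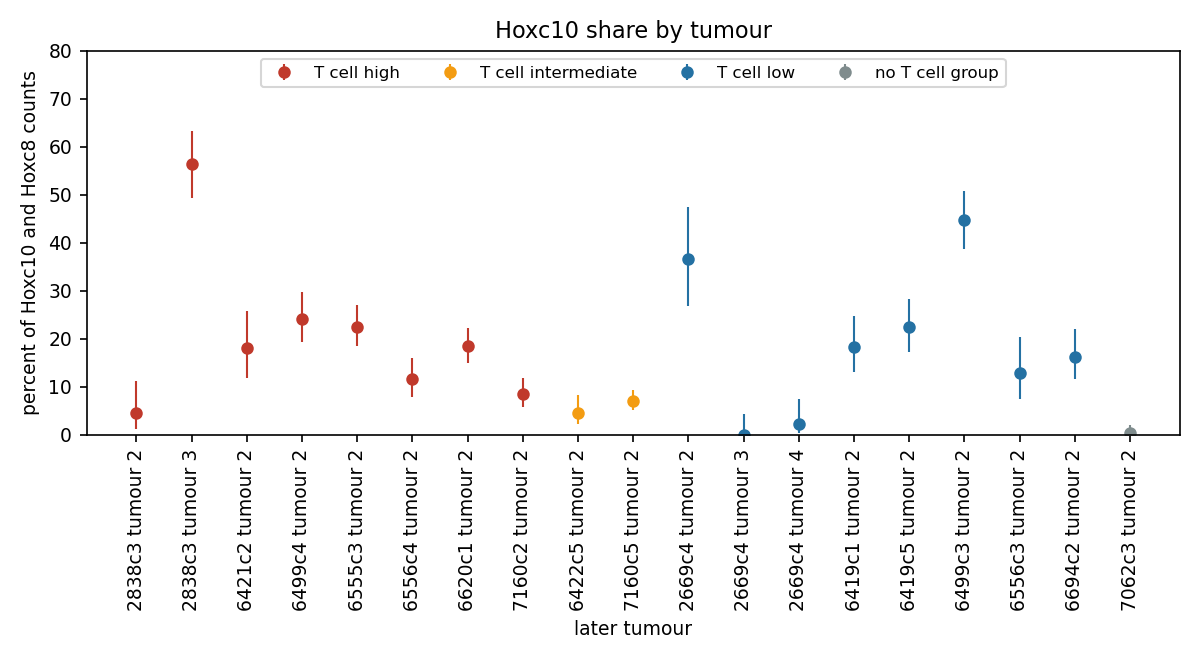
Hoxc10 counts as a percent of the summed Hoxc10 and Hoxc8 counts in each later tumour (x axis), coloured by T cell group, with 95% Clopper-Pearson intervals as bars. Tumours 2 and 3 of bulk_2838c3 lie at 4.55% and 56.3%, and tumour 2 of bulk_2669c4 at 36.7% lies above its tumours 3 and 4.

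Whether Hox genes differed among clones was tested with edgeR's quasi-likelihood test, with 1 coefficient per clone over the 18 later tumours. After Benjamini-Hochberg adjustment over 19455 genes, 0 of the 30 Hox genes that passed the low-count filter were called, where 0% of all genes were called. At an unadjusted p under 0.05 there were 6 Hox genes (20% of those tested), against 13% of all genes: Hoxb6 (p = 0.00758, adjusted p = 0.245), Hoxa13 (p = 0.00779), Hoxc8 (p = 0.0248), Hoxa11, Hoxb5 and Hoxd3. Named outside the rule, these 6 were chosen after their values were seen. Of the 6, Hoxa11 and Hoxa13 passed the low-count filter only through bulk_6419c5, where they are high. Their p-values and their part in the count of 6 are therefore a description. Single tumours moved that count. It was 10 without tumour 2 of bulk_2669c4, the one with liver and heart transcripts, where 4626 of 19002 genes had such a p. It was 3 without tumour 2 or 3 of bulk_2838c3, where 1724 of 19368 and 1757 of 19373 genes did. DESeq2 called 4 Hox genes, Hoxa10, Hoxa13, Hoxb6 and Hoxc8, where it called 22.8% of all genes with an adjusted p. Without the filter on low counts, edgeR called Hoxa13 and 1.45% of all genes. With tumours numbered 1 added it called Hoxa10 and Hoxa13 and 12.1% of all genes, or, with the tumour number as a replicate block, Hoxa10, Hoxa13, Hoxb4 and Hoxd8 and 24.9% of all genes. The median SD of log2 CPM over clones was 0.73 for the tested Hox genes and 0.48 for all tested genes. The sets were not matched for level, and the Hox set includes Hoxa11 and Hoxa13. These medians therefore do not show that Hox genes vary more than other genes of their level. Only 3 residual degrees of freedom, from bulk_2669c4 and bulk_2838c3, estimate the spread within a clone.

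Clones that share a number were then set side by side over all 38 genes. The distance between 2 clones was the mean absolute difference in log2 CPM. It was 0.457 for bulk_6499c4 and bulk_6499c3, 0.805 for bulk_6556c4 and bulk_6556c3, 1.03 for bulk_7160c2 and bulk_7160c5, and 1.18 for bulk_6419c1 and bulk_6419c5. Over all 105 pairs of clones the median was 0.735, with a range of 0.391 (bulk_6499c4 and bulk_6620c1) to 1.83 (bulk_2669c4 and bulk_6419c5). From the closest pair up, the 4 pairs stood at places 5, 61, 82 and 90. Later tumours of 1 clone gave 4 pairs, from bulk_2669c4 and bulk_2838c3 alone, and those of bulk_2669c4 share tumours. Both clones were low in summed Hox level, at 21.2 and 28.0 CPM against a median of 43.0 CPM. The 4 pairs may therefore not stand for the other clones. Their distances were 0.504 to 0.87, of which 0.733 and 0.87 involve tumour 2 of bulk_2669c4 and its liver and heart transcripts. The distance of bulk_6499c4 and bulk_6499c3 was below all 4 of these, and those of bulk_7160c2 and bulk_7160c5 and of bulk_6419c1 and bulk_6419c5 were above all 4. Set against the pairs at 0.504 and 0.66 alone, that of bulk_6556c4 and bulk_6556c3 was above both as well. This order did not hold in tumours numbered 1, which carry liver and heart transcripts: there the distance was 0.344 for the bulk_7160 pair, 0.65 for the bulk_6499 pair, 0.736 for the bulk_6419 pair and 1.03 for the bulk_6556 pair, at places 2, 33, 48 and 87 of 105. Over all 19455 tested genes in later tumours the order was another: the bulk_6419, bulk_6556 and bulk_7160 pairs stood at places 3, 4 and 2 of 105, and the bulk_6499 pair at place 39. In none of the 8 clones was the clone of the same number the nearest over Hox genes; its place among 14 others ran from 2 (for bulk_6499c3) to 14 (for bulk_6419c1). Pairs share clones, so these distances are a description without a test.

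**Figure D4:**
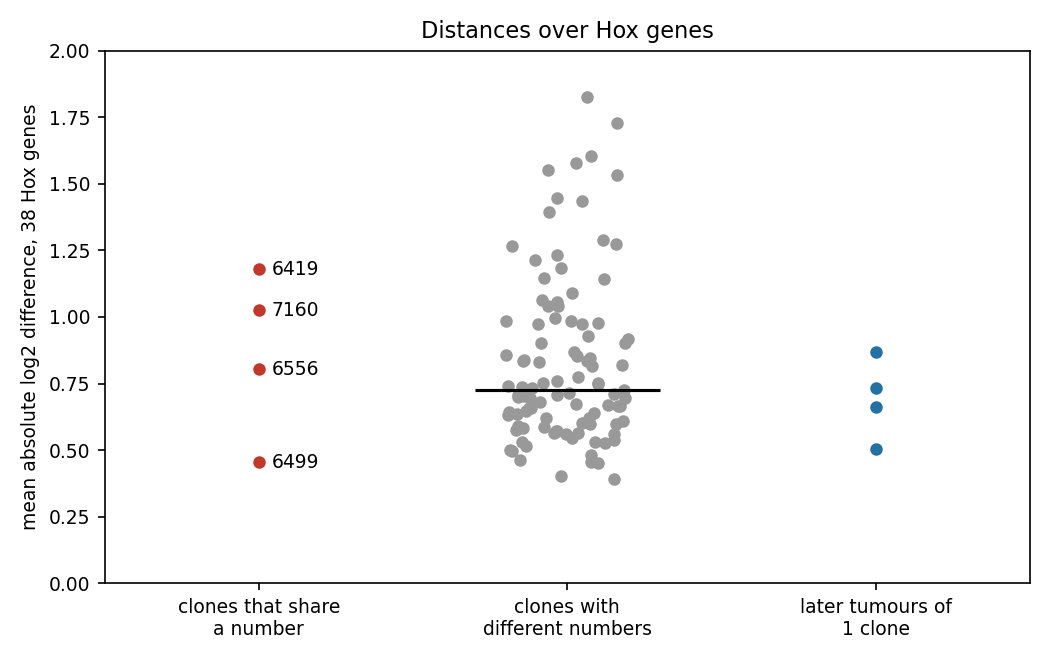
Mean absolute log2 difference over 38 Hox genes (y axis) between clones that share a number, between clones with different numbers (the line is their median) and between later tumours of 1 clone. The bulk_6499 pair lies at 0.457, below the 4 pairs of tumours of 1 clone, which come from bulk_2669c4 and bulk_2838c3 alone. The bulk_7160 and bulk_6419 pairs lie above 1.

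The detection pattern was shared at 32 of 38 genes by bulk_6499c4 and bulk_6499c3, at 32 by bulk_6556c4 and bulk_6556c3, at 28 by bulk_6419c1 and bulk_6419c5 and at 27 by bulk_7160c2 and bulk_7160c5. The 4 genes detected in all clones and the 14 detected in none are shared by any pair of clones. These counts alone therefore do not show that clones of 1 number agree more than others. In the pair bulk_6419c1 against bulk_6419c5 both clones are T cell low. All 11 Hoxa genes and 8 of 10 Hoxb genes were lower in bulk_6419c1; the Hoxa sum was 7.42 CPM in bulk_6419c1 and 64.1 CPM in bulk_6419c5. The Hoxc sum was 15.4 CPM in bulk_6419c1 and 14.6 CPM in bulk_6419c5, and the Hoxd sum was 7.53 CPM in bulk_6419c1 and 7.28 CPM in bulk_6419c5. Hoxa13 was at 0.218 CPM in bulk_6419c1 and 9.16 CPM in bulk_6419c5, a log2 difference of -5.38 (SE 1.33, p = 0.0177, adjusted p = 1). Hoxa13 passed the low-count filter only through bulk_6419c5, so this p-value and its place in the count below are a description. Hoxb6 was at 1.13 CPM in bulk_6419c1 and 15.3 CPM in bulk_6419c5, with -3.77 (SE 0.84, p = 0.00448, adjusted p = 1). Hoxb5 and Hoxa3, with log2 differences of -2.70 and -2.08, completed the 4 Hox genes with an unadjusted p under 0.05 (13.3% of the 30 tested), against 2.49% of all genes. Leaving out tumours of bulk_2669c4 and bulk_2838c3, the clones that give the spread, moved the count. It was 7 without tumour 2 of bulk_2669c4, where 1052 of 19002 genes had such a p. It was 2 without either tumour 2 or tumour 3 of bulk_2838c3, where 415 of 19368 and 414 of 19373 genes did. No Hox gene was called by edgeR, where 0% of all genes were called, or by DESeq2, where 0.33% were. The fibroblast marker sum was 12680 CPM in bulk_6419c1 and 10770 CPM in bulk_6419c5.

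The pair bulk_6499c4 (T cell high) against bulk_6499c3 (T cell low) had no Hox gene with an unadjusted p under 0.05, against 6.45% of all genes, and none called by edgeR, where 0% of all genes were, or by DESeq2, where 1.74% were. The cluster sums were 8.26 CPM in bulk_6499c4 and 9.18 CPM in bulk_6499c3 for Hoxa, 15.6 and 12.2 CPM for Hoxb, 17.1 and 17.8 CPM for Hoxc, and 7.22 and 7.05 CPM for Hoxd, in the same order. Hoxc10 was at 2.16 CPM in bulk_6499c4 and 3.57 CPM in bulk_6499c3, and Hoxb7 at 2.45 CPM in bulk_6499c4 and 1.06 CPM in bulk_6499c3. Their fibroblast marker sums were 11970 CPM in bulk_6499c4 and 17560 CPM in bulk_6499c3.

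In the pair bulk_6556c4 (T cell high) against bulk_6556c3 (T cell low), values were higher in bulk_6556c4 for 30 of 38 genes, and the sum over all Hox genes was 50.4 CPM in bulk_6556c4 and 26.6 CPM in bulk_6556c3. The ratio of bulk_6556c4 over bulk_6556c3 was 2.15 for Hoxa, 1.82 for Hoxb, 1.82 for Hoxc and 1.96 for Hoxd. Hoxa7 was at 2.17 CPM in bulk_6556c4 and 0.648 CPM in bulk_6556c3, a log2 difference of 1.74 (SE 0.70, p = 0.0481, adjusted p = 1), the only Hox gene with an unadjusted p under 0.05 (3.33%), against 2.84% of all genes. The count was 2 without tumour 2 of bulk_2669c4, where 1097 of 19002 genes had such a p. It was 0 without tumour 3 or 4 of bulk_2669c4, where 342 of 19451 and 290 of 19389 genes did. It was also 0 without tumour 2 or 3 of bulk_2838c3, where 479 of 19368 and 475 of 19373 genes did. No Hox gene was called by edgeR, where 0% of all genes were called, or by DESeq2, where 0.122% were. Fibroblast markers summed to 11460 CPM in bulk_6556c4 and 9444 CPM in bulk_6556c3.

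In the pair bulk_7160c2 (T cell high) against bulk_7160c5 (T cell intermediate), values were higher in bulk_7160c2 for 3 of 38 genes, and the ratio of bulk_7160c2 over bulk_7160c5 was 0.412 for Hoxa, 0.475 for Hoxb, 0.588 for Hoxc and 0.459 for Hoxd. Hoxb3, an anterior gene of the hindbrain, was at 0.431 CPM in bulk_7160c2 and 1.98 CPM in bulk_7160c5, a log2 difference of -2.16 (SE 0.72, p = 0.0253, adjusted p = 1). Hoxd3 was at 0.955 CPM in bulk_7160c2 and 3.20 CPM in bulk_7160c5 (log2 difference -1.71, p = 0.0375), and Hoxb8 at 0.709 CPM in bulk_7160c2 and 2.13 CPM in bulk_7160c5 (-1.55, p = 0.0478). Hoxa2 had 0 counts in bulk_7160c2 and 34 counts in bulk_7160c5, at least 9.11-fold lower in bulk_7160c2 against a floor of 3 counts. That 0 is of 1 tumour: tumour 2 of bulk_7160c2 less its tumour 1 was -3.05 on log2 for Hoxa2. These 4 genes had an unadjusted p under 0.05 (13.3%), against 2.15% of all genes, and none was called by edgeR, where 0% of all genes were called, or by DESeq2, where 0.107% were. The count was 6 without tumour 2 of bulk_2669c4, where 944 of 19002 genes had such a p. It was 1 without tumour 3 or 4 of bulk_2669c4, where 274 of 19451 and 248 of 19389 genes did. It was 2 without tumour 2 or 3 of bulk_2838c3, where 321 of 19368 and 321 of 19373 genes did. The fibroblast marker sum was 14550 CPM in bulk_7160c2 and 30530 CPM in bulk_7160c5, its part in these differences was not tested, and endothelial markers summed to 147.7 CPM in bulk_7160c2 and 380.9 CPM in bulk_7160c5. The members named in the 4 pairs for their p were chosen after their values were seen.

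**Figure D5:**
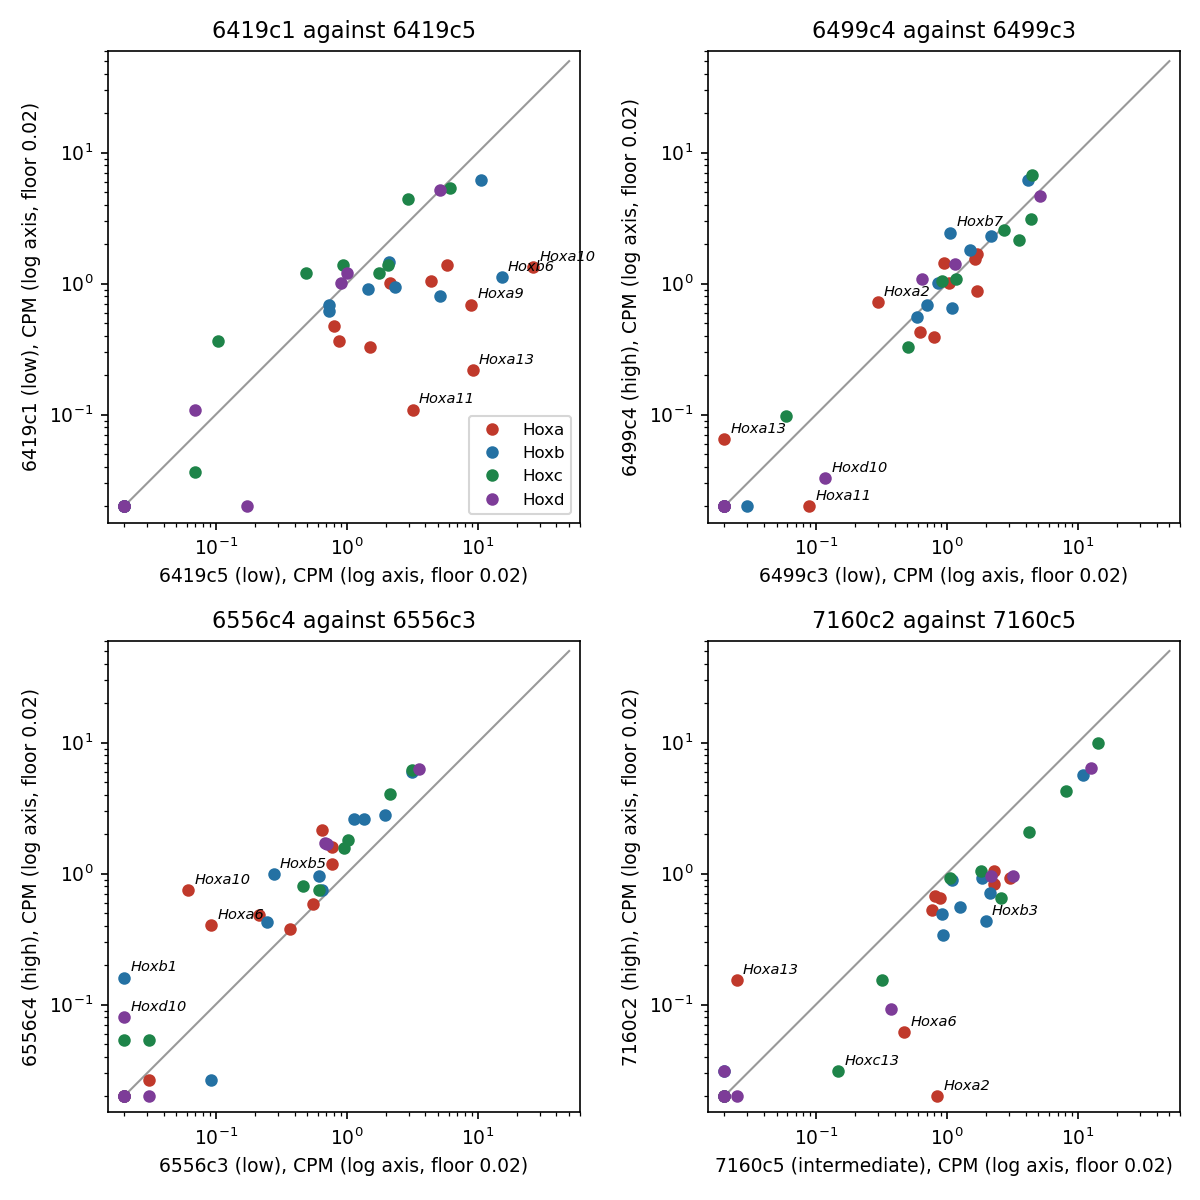
Level of 37 of the 38 Hox genes in each pair of clones that share a number, the first-named clone on the y axis and the second on the x axis, in TMM-scaled CPM (log axes, values under 0.02 drawn at 0.02), coloured by cluster. Hoxa genes fall below the diagonal in bulk_6419c1 against bulk_6419c5, points lie near it in bulk_6499c4 against bulk_6499c3, and nearly all lie above it in bulk_6556c4 against bulk_6556c3 and below it in bulk_7160c2 against bulk_7160c5.

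The bulk_6499 and bulk_6556 pairs both set a T cell high clone against a T cell low one. The difference between the 2 contrasts, bulk_6499c4 minus bulk_6499c3 less bulk_6556c4 minus bulk_6556c3, had a median log2 value of -0.98 over the 30 tested Hox genes and 0.00 over all tested genes. No Hox gene was called by edgeR, where 0% of all genes were called, and 0 had an unadjusted p under 0.05, against 3.95% of all genes. Without tumour 2 of bulk_2669c4 there was 1, where 1427 of 19002 genes had such a p. DESeq2 called no Hox gene and 0.61% of all genes.

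No Hox gene was called between T cell high and low clones. On counts summed per clone, 0 of 27 tested Hox genes were called by edgeR over 17973 genes, where 0% of all genes were called, and DESeq2 called 0, where it called 0.31% of all genes. DESeq2 gave Hoxa10 no p-value (log2 difference -2.829, SE 1.015), so that gene could not be called by it. The median log2 difference of the Hox genes was 0.15, against 0.00 over all genes. The summed Hox level had a lowest, median and highest of 28.0, 48.2 and 68.3 CPM in the 7 high clones, and 21.2, 39.8 and 124.3 CPM in the 6 low clones, so the groups overlapped. Hoxa10 had the smallest p. It was at 0.477, 0.749 and 0.885 CPM (lowest, median, highest) in high clones and at 0.0617, 1.14 and 26.6 CPM in low clones, which is -2.82 on log2 (SE 1.04, p = 0.0155, adjusted p = 0.65). It was the only Hox gene with an unadjusted p under 0.05 (3.70%), against 6.65% of all genes. Leaving out bulk_6422c5 or bulk_7160c5 left 1 intermediate clone and loosened the low-count filter, to 30 and 29 tested Hox genes. Counts of those fits are therefore not set beside this one. There were 2 Hox genes with an unadjusted p under 0.05 without bulk_2838c3, bulk_6419c1, bulk_6419c5 or bulk_6421c2. In those fits, in this order, 1580 of 17886, 1212 of 17916, 1351 of 17880 and 1138 of 17928 genes had such a p. Without bulk_6419c5 the Hoxa10 difference was -0.21 (SE 0.67, p = 0.76), so it rests on that clone. Hoxd9 was at 0.639, 1.03 and 1.71 CPM in high clones and at 0.348, 0.664 and 1.02 CPM in low clones (on log2, 0.70, SE 0.33, p = 0.0516). Hoxb7 was at 0.465, 2.37 and 3.46 CPM in high clones and at 0.697, 1.004 and 2.33 CPM in low clones (on log2, 0.67, SE 0.43, p = 0.137). The values of both genes overlapped between the groups.

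Genes that act with or on the Hox clusters were read in the same fits, in 7 lists: Hox cofactors (9 genes, 9 tested among clones), Polycomb repressors (19, 19 tested), Trithorax activators and Ctcf (13, 13 tested), caudal, ParaHox and Evx genes (8, 3 tested), the retinoic acid pathway (16, 16 tested), noncoding RNAs of the Hox clusters (16, 2 tested) and position genes of dermal and limb mesenchyme (12, 11 tested). No gene of any list was called by edgeR in any of the 7 comparisons, where 0% of all genes were called. Among clones, 2, 2, 2, 0, 7, 1 and 3 genes of these lists, in the order given, had an unadjusted p under 0.05, which is 22.2%, 10.5%, 15.4%, 0%, 43.8%, 50% and 27.3% of those tested, against 13% of all genes. The smallest p belonged to Twist1, a gene of mesenchyme (p = 0.000134, adjusted p = 0.112), and to Meis1, a Hox cofactor (p = 0.000233, adjusted p = 0.129). Meis1 was lowest in bulk_6421c2, at 1.01 CPM, and highest in bulk_2669c4, at 32.2 CPM. It was at 2.16 CPM in bulk_6499c4 and 17.9 CPM in bulk_6499c3, the closest of the 4 same-number pairs over Hox genes, and at 2.11 CPM in bulk_6419c1 and 2.44 CPM in bulk_6419c5. Stra6, which takes up retinol (p = 0.0043), Psip1, a chromatin reader (p = 0.0105), Hoxa11os (p = 0.0274), Phf19, a Polycomb accessory protein (p = 0.0336), and Pdx1, the pancreatic ParaHox gene (p = 0.061), had the smallest p of the other lists. Hoxa11os passed the low-count filter only through bulk_6419c5, so its p-value and the 50% of its list are a description.

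The list genes with the smallest p in each comparison, 1 per list, were not called in the edgeR fits as reported. In bulk_6419c1 against bulk_6419c5 they had log2 differences of 1.12 (Twist1), 2.38 (Crabp1, which binds retinoic acid), -0.79 (Psip1), -0.72 (Phf19), -0.38 (Pbx3), -3.53 (Evx1, next to Hoxa13) and -5.81 (Hoxa11os). In bulk_6499c4 against bulk_6499c3 they had -3.08 (Meis1), 3.54 (Cbx7, a Polycomb protein), 0.54 (Psip1), 5.72 (Cdx2, the intestinal caudal gene), 1.01 (Hoxb3os), 2.05 (Twist1) and 3.34 (Rarb, a retinoic acid receptor). Cdx2, an activator of Hox genes in the embryo, was at 54.0 CPM in bulk_6499c4 and 1.004 CPM in bulk_6499c3, and its part in the Hox levels was not tested. In bulk_6556c4 against bulk_6556c3 they had 1.49 (Meis3), -1.11 (Phc3), -0.84 (Ash1l), 3.01 (Cdx2), 0.55 (Hoxb3os), 1.05 (Twist2) and 2.37 (Aldh1a3, which makes retinoic acid). In bulk_7160c2 against bulk_7160c5 they had -1.35 (Meis3), -0.47 (Jarid2), -0.60 (Dot1l), 0.76 (Pdx1), -1.04 (Hoxb3os), -1.32 (Shox2) and -1.72 (Crabp2). In high against low clones they had 0.62 (Meis3), -0.43 (Bmi1), -0.22 (Ash1l), 1.70 (Cdx2), 0.29 (Hoxb3os), 1.08 (Twist1) and 1.48 (Rarb). Between the bulk_6499 and bulk_6556 pairs the contrast differed by -2.76 (Meis1), 4.19 (Cbx7), 0.72 (Psip1), 2.71 (Cdx2), 0.46 (Hoxb3os), 1.52 (Twist1) and 3.85 (Stra6). The smallest adjusted p among all of these, by edgeR with Benjamini-Hochberg adjustment, was 0.427.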

How the data were processed

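Read counts per gene were deposited by the authors for 37 bulk tumours, as raw whole numbers; STAR, featureCounts and the build mm10 are named per the submitters' processing notes, without versions, annotation or strand setting. Of the identifiers, 37607 were found in GENCODE M21 (GRCm38), used for coordinates and exonic lengths, and 1410 were not. Levels are TMM-scaled CPM, with later tumours of 1 clone pooled as summed counts over summed scaled library sizes. Ranges, spreads and distances in log2 CPM use a prior count of 2. Log2 differences of the tests are those of the edgeR fits. Their SE is the absolute log2 difference over the square root of the F statistic. Tests were edgeR 4.0.16 quasi-likelihood fits with Benjamini-Hochberg adjustment over all genes passing filterByExpr (R 4.3.3): 1 coefficient per clone, contrasts of clones that share a number, and T cell high against low on counts summed per clone. DESeq2 1.42.0, other scalings, filters, thresholds and left-out tumours or clones were alternatives. The fits were tested on simulated data. Genes given with values were those called, in each cluster those highest per length, widest in range and lowest and highest in number at 1 CPM, the 3 smallest p of high against low, and the smallest p of each other list; further ones were chosen after their values were seen. 1 member enters counts and sums but is not reported here by itself. Members and lists were chosen with earlier results of these data known.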

Additional observations from a re-analysis of the deposited data

Results flagged for a closer look

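In groups of 6 or 7 clones, the highest value was set against its nearest neighbour by Dixon's test over 48 groups; chance flags about 1 in 20 groups. Among the 6 T cell low clones, bulk_6419c5 lay apart for 9 genes: Hoxa3 at 4.42 CPM, Hoxa5 at 5.88 CPM, Hoxa7 at 2.16 CPM, Hoxa9 at 8.98 CPM, Hoxa10 at 26.6 CPM, Hoxa11 at 3.20 CPM, Hoxa13 at 9.16 CPM, Hoxb5 at 5.15 CPM and Hoxb6 at 15.3 CPM. All come from 1 tumour. Genes entered by reaching 1 CPM in some clone, and Hoxa11 and Hoxa13 did so only in bulk_6419c5, so their flags are a description. Among the 7 T cell high clones, bulk_6620c1 lay apart for Hoxa6, at 0.908 CPM, bulk_6555c3 for Hoxb6, at 6.87 CPM, and bulk_2838c3 for Hoxa11, at 0.0502 CPM, where the other 6 had 0 counts. Any count is flagged against 6 values of 0, and 0.0502 CPM is under the level of 3 counts in both tumours of that clone (0.0697 and 0.0819 CPM).

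The bulk_6883c4 tumour, which has no T cell group and enters no comparison, had a Hoxa10 to Hoxa13 sum of 23.8 CPM, against a median of 0.739 CPM over the labelled tumours. Its sum over all genes numbered 10 to 13 was 25.3 CPM, against a median of 1.84 CPM.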

How the results depend on the processing

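Counts of called Hox genes were 0 in every comparison and kept that value in 78 alternatives. Each clone was left out in turn only in T cell high against low. In the tests among clones and between pairs, only single tumours of bulk_2669c4 and bulk_2838c3 were left out. There, clones with 1 later tumour, bulk_6419c5 among them, were never left out. The other 4 all concern the test among clones: 1 without the filter on low counts, 4 with DESeq2, 2 with all tumours and no replicate block, and 4 with all tumours and the tumour number as a replicate block. Deviations of same-numbered tumours correlated with a median of 0.616 over 105 pairs of clones, from -0.174 to 0.839; as not every pair was positive and the labels tie no meaning to the number, it was not taken as a pairing. Hoxa10 in T cell high against low clones ranged from -3.09 to -0.21 on log2 when 1 clone was left out.

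The median number of genes detected per clone was 5 at 2 CPM. With a root mean square in place of the mean, distances were 1.81 (bulk_6419), 0.631 (bulk_6499), 1.02 (bulk_6556) and 1.30 (bulk_7160). In tumours numbered 1 they were 0.736, 0.65, 1.03 and 0.344, in the same order. A prior count of 0.5 gave 1.02 for bulk_6556 and 1.25 for bulk_7160, and one of 5 gave 0.871 for bulk_7160. For bulk_7160, numbers 1 to 8 alone gave 1.34 and numbers 9 to 13 alone 0.602, alternatives chosen after seeing the data. Among list genes, 7 values changed sign and 491 kept sign and side of the threshold. The other 6 kept their sign and had an adjusted p under 0.05 in an alternative. With all tumours and no replicate block, Hoxb3os was -0.081 and Psip1 -0.11 between the bulk_6499 clones, and Hoxb3os -0.567 between the pairs. With the replicate block these were -0.027, -0.195 and -0.516, and Hoxb3os was -0.001 in high against low clones. The cause was not tested. Precision is limited by depth, with a median of 32.8 M counts, and by most clones having 1 tumour.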

Other observations

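The bulk_7062c3 tumour numbered 2 and the bulk_6883c1 and bulk_6883c4 tumours numbered 1 have no T cell group. Hoxc genes held 47.7% of the summed Hox CPM in bulk_7062c3, with Hoxc8 at 9.56 CPM and Hoxc10 at 0.034 CPM (1 count), and its Hoxa10 to Hoxa13 sum was 0. In bulk_6883c4 Hoxa genes held 61.1% of a Hox total of 59.4 CPM, and in bulk_6883c1 25.3% of 26.8 CPM. Hoxb6 was at 3.19 CPM in bulk_6883c4 and 0.624 CPM in bulk_6883c1, and Hoxa5 at 3.26 CPM in bulk_6883c4 and 1.08 CPM in bulk_6883c1. Hoxc8, at 1.82 and 1.96 CPM in the same order, and Hoxd8, at 3.16 and 3.43 CPM, lay close.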
